A study of Mus musculus with 4 samples.

Results

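Club cells are the secretory cells of the mouse airway lining, and 10 genes of their secreted and detoxifying products are described here: Scgb1a1, Scgb3a1, Scgb3a2, Bpifa1, Bpifb1, Cyp2f2, Cbr2, Aldh1a7, Gsto1 and Reg3g. They were taken as every probe other than a control whose gene name in the scanner files is one of these symbols. That gave 14 probes of the 56605 on the array, and 10 genes of the 26763 that could be named. Scgb3a2, Bpifb1, Cbr2 and Gsto1 had 2 probes each, and the remaining genes had 1. All 14 probes were well above background on all 4 arrays, so no member was lost to dim signal.

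The arrays carried lung RNA of C57BL/6J mice, pooled over 5 animals per array, and the labels give 3 weeks for the inhaled agent without saying whether that is the length of treatment or the time since it. The groups were ORX/PPE (ORX surgery, PPE inhaled), ORX/PBS (ORX surgery, PBS inhaled), sham/PPE (sham surgery, PPE inhaled) and sham/PBS (sham surgery, PBS inhaled), with 1 array each. The title of the series speaks of testosterone deficiency and of elastase-induced emphysema, so ORX is taken to mean orchiectomy and PPE to mean porcine pancreatic elastase. All 4 pools share strain and tissue. Age, sex, dose and the time between surgery and inhalation are not given in the sources used here. With ORX read as orchiectomy, the ORX mice were male, and the sham mice presumably so. With 1 pool per group there was no replicate of any condition, no test was possible and no p-value is given, and the spread between mice is unknown.

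A level here is the log2 of the probe's processed signal minus the log2 of the array's 75th percentile, and a difference is the level on one array minus that on another. A difference counted as past the threshold at 2-fold or more. Repeated spots of bright probes (signals of 10000 or more) gave a median SD of at most 0.05 for such a difference, which covers spotting and scanning and not mice. The scanner software's own error estimate was larger, 10% of the signal for every member probe on every array. Since a level also depends on the probe, levels are compared between arrays and not between genes. In bulk lung RNA, fewer cells of a type and less RNA per cell cannot be told apart.

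The lung label fitted its markers: the surfactant gene Sftpc of alveolar type 2 cells and Ager of alveolar type 1 cells were well above background on every array. The 75th percentile of the signal was 861 on ORX/PPE, 999 on ORX/PBS, 830 on sham/PPE and 853 on sham/PBS, so scaling lowered ORX/PBS values the most. The sham/PPE array stood apart in tissue content. Its summed level of 10 cardiac muscle genes, on the linear scale of signal over the 75th percentile, was 165, against 31.8 on ORX/PPE, 64.3 on ORX/PBS and 79.1 on sham/PBS. Its summed level of 14 neutrophil genes was 204, against 147 on ORX/PPE, 121 on ORX/PBS and 99.5 on sham/PBS. The comparisons of PPE with PBS in sham mice and of ORX with sham under PPE rest on that array, those of ORX with sham under PBS and of ORX/PPE with sham/PBS do not, and both kinds are given throughout.

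Club cells line the small airways, secrete a protein film onto the airway surface, and repair the airway after injury as progenitors of ciliated cells. Their secretoglobins are small secreted proteins that bind hydrophobic ligands and dampen inflammation, and the BPI-fold proteins bind lipids and bacterial products in airway liquid. The same cells hold much of the mouse lung's cytochrome P450 and other enzymes that transform inhaled chemicals, and they can be induced to make antimicrobial lectins.

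Sequence is shown for the members whose order across the arrays held best, Bpifa1 and Reg3g, and for Bpifb1, a relative of Bpifa1 on the same chromosome that did not share that order. The single Bpifa1 probe carries the main result below. Its 60 bases lie within chr2:153971869-153972981 (mm9, plus strand, per the scanner files). That span is 1113 bases long, so the probe crosses at least 1 exon junction.
Bpifa1 probe: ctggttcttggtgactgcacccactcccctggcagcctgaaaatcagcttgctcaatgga

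The promoters come from RefSeq on GRCm38.p6 and run from 250 bases before the annotated start to 50 after it, read 5′ to 3′ on the gene's strand. Capitals mark matches on either strand to TATAAA, the box near many starts, and to TNTTTAC, the core that FOXA factors of lung epithelium bind. Bpifa1 lies at chr2:154142630-154142929 (plus strand), the second of 2 annotated Bpifb1 starts at chr2:154200130-154200429 (plus strand), and Reg3g at chr6:78468825-78469124 (minus strand).
Bpifa1 promoter: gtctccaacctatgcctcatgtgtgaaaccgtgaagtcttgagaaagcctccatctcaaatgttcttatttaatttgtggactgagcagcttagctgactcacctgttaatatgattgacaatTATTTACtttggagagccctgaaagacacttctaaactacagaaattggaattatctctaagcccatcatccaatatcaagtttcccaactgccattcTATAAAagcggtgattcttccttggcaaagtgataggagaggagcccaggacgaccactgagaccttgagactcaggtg
Bpifb1 promoter: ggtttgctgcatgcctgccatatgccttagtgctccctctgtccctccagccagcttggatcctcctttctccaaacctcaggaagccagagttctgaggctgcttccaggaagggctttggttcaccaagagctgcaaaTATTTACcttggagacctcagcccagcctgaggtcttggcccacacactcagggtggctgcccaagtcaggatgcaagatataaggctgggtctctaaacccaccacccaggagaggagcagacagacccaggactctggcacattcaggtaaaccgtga
Reg3g promoter: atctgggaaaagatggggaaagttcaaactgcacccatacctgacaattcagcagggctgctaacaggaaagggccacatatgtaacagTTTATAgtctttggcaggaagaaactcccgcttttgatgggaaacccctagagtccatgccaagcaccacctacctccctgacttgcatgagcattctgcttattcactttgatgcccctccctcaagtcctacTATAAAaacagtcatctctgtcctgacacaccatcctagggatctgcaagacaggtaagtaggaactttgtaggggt

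Among the 8 members with a promoter in that table (Scgb1a1 and Scgb3a2 are named only), TATAAA was found in Bpifa1, Reg3g and Aldh1a7, and in 13.6% of all 32851 promoters. In Bpifa1 and Reg3g it began 29 and 27 bases before the start, and Reg3g held it again on the other strand. TNTTTAC was found in Bpifa1 and Bpifb1, 127 and 110 bases before the start, and in 12.4% of all promoters. AGAACA, the half-site shared by the androgen and glucocorticoid receptors, was found in Bpifa1, Bpifb1 and Cyp2f2 and in 19.0% of all promoters. In Bpifb1 it lay at the other annotated start and not in the sequence printed, and in Cyp2f2 it lay after the start. TTCNNNGAA, the STAT type, was found in Bpifb1 and Scgb3a1 and in 8.30% of promoters. The NF-kB type was found in 0 of the 8 members and in 1.63% of promoters. TATAAA and TNTTTAC did not overlap in the windows printed, and a match of letters is not a measured binding site.

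Bpifa1 was the only member past 2-fold in any of the 5 comparisons, and it stood lowest in the ORX/PPE pool. Its scaled signal there was 37.8% of that in sham/PPE and 29.0% of that in sham/PBS. On the brightest probe, 9 of the 10 members had both ORX arrays below both sham arrays, an order found in 21.6% of all genes. Without scaling between arrays 2 of the 10 did, and the share of all genes was not counted there. On the second probes of Scgb3a2, Cbr2 and Gsto1 the ORX and sham arrays overlapped. Between PPE and PBS the members were ordered less evenly. On the brightest probe, Bpifb1 alone was lower on both PPE arrays than on both PBS arrays, an order found in 12.8% of all genes. The second probes of Cbr2, Gsto1 and Scgb3a2 had that order too, for Scgb3a2 with sham/PPE and ORX/PBS equal to 2 decimals.

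**Figure D1:**
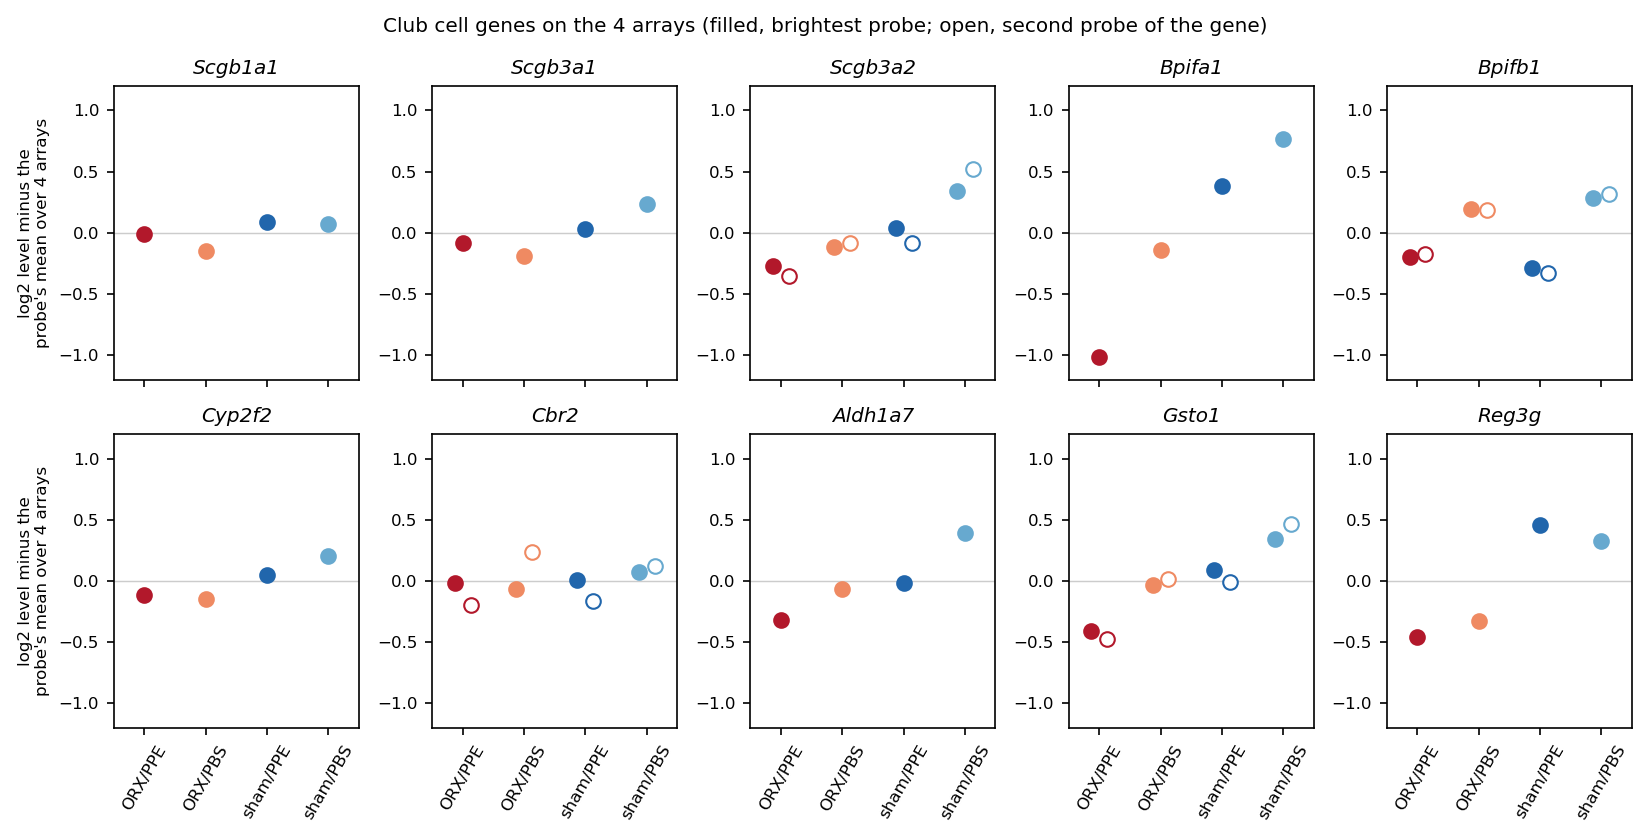
Level of each club cell gene on the 4 arrays (horizontal axis, ORX/PPE, ORX/PBS, sham/PPE, sham/PBS; 1 array each), as the log2 level minus the probe's mean over the arrays (vertical axis). Filled points are the brightest probe and open points the second probe of the gene; Bpifa1 spans 1.78 log2 units and Cbr2 0.14.

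The secretoglobins come first by role. Scgb1a1 encodes the club cell secretory protein itself, and its probe lies at chr19:9158197-9158256 on the minus strand (mm9, as for all probes below). Its processed signal was 370923 in ORX/PPE, 390221 in ORX/PBS, 382996 in sham/PPE and 387942 in sham/PBS. The level was 8.75 in ORX/PPE, 8.61 in ORX/PBS, 8.85 in sham/PPE and 8.83 in sham/PBS. The 4 arrays lay within 0.24 log2 units, and both ORX arrays were below both sham arrays by a gap of 0.08. PPE minus PBS was 0.14 in ORX and 0.02 in sham mice, and ORX minus sham was -0.10 under PPE and -0.22 under PBS. All of these are small, and the -0.22 became 0.01 without scaling between arrays. Sftpc, a gene of alveolar type 2 cells with signals between 408009 and 430488, differed by -0.21 in the same comparison.

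Scgb3a1, a secretoglobin of the larger airways, was read at chr11:49478489-49478548 (plus strand). Its level was 6.96 in ORX/PPE, 6.85 in ORX/PBS, 7.07 in sham/PPE and 7.27 in sham/PBS. ORX arrays again lay below sham arrays, with the lowest value in ORX/PBS. The surgery difference, ORX minus sham, was -0.12 under PPE and -0.43 under PBS, while PPE minus PBS was 0.11 in ORX and -0.20 in sham mice.

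Scgb3a2, a secretoglobin regulated by Nkx2-1 in mouse lung, had 2 probes that do not overlap. The brighter had levels of 8.19 in ORX/PPE, 8.34 in ORX/PBS, 8.50 in sham/PPE and 8.81 in sham/PBS. The dimmer had 5.02 in ORX/PPE, 5.29 in ORX/PBS, 5.29 in sham/PPE and 5.90 in sham/PBS. Both probes put ORX/PPE lowest and sham/PBS highest, and on the dimmer probe ORX/PBS and sham/PPE were equal to 2 decimals. ORX/PPE minus sham/PBS was -0.62 on the brighter and -0.88 on the dimmer probe, short of 2-fold on both. ORX minus sham was -0.31 and -0.27 under PPE and -0.47 and -0.61 under PBS, brighter probe first. PPE minus PBS was -0.15 and -0.27 in ORX mice and -0.31 and -0.61 in sham mice.

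Of 18 mouse secretoglobins listed, 17 were on the array and 8 were above background. Of these, 6 had both ORX arrays below both sham arrays, an order found in 21.6% of all genes. The 6 include the members Scgb1a1, Scgb3a1 and Scgb3a2, so the count is not separate from theirs. Beside the members, the gaps were 0.13 for Scgb1b3, 0.13 for Scgb1c1 and 0.01 for Scgb2b20. None of the 8 passed 2-fold in any comparison, and their median was -0.12 for ORX against sham under PPE and -0.32 under PBS. Members of this family resemble each other, and whether probes read their relatives was not tested.

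The BPI-fold genes differed most from each other. Bpifa1 encodes a lipid-binding protein of airway surface liquid that restrains the epithelial sodium channel and bacteria. Its processed signal was 21809 in ORX/PPE, 46315 in ORX/PBS, 55540.2 in sham/PPE and 74429.8 in sham/PBS. In levels this was 4.66 in ORX/PPE, 5.53 in ORX/PBS, 6.06 in sham/PPE and 6.45 in sham/PBS. Both ORX arrays were below both sham arrays by a gap of 0.53, and within each surgery the PPE array was below the PBS array.

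ORX minus sham for Bpifa1 was -1.40 under PPE (37.8% of the scaled sham signal) and -0.91 under PBS (53.1%). PPE minus PBS was -0.87 in ORX mice (54.7% of the scaled PBS signal) and -0.38 in sham mice (76.7%). ORX/PPE minus sham/PBS was -1.78. The PPE difference in ORX minus that in sham was -0.49, a value with no replicate error. In ORX against sham under PPE, 97 of 19364 genes above background on both arrays were further down, and in ORX/PPE against sham/PBS 9 of 19383 were. Among the 1883 genes with a signal of 10000 or more on some array, 0 were further down in ORX/PPE against sham/PBS and 5 in ORX against sham under PPE. Over all 10 other settings tried, the differences ranged from -1.41 to -1.35 and from -1.84 to -1.73 in these comparisons. Bpifa1 rests on 1 probe, so no second probe of the gene bears on it. The settings that pick or average probes or filter dim ones could not change its differences.

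**Figure D2:**
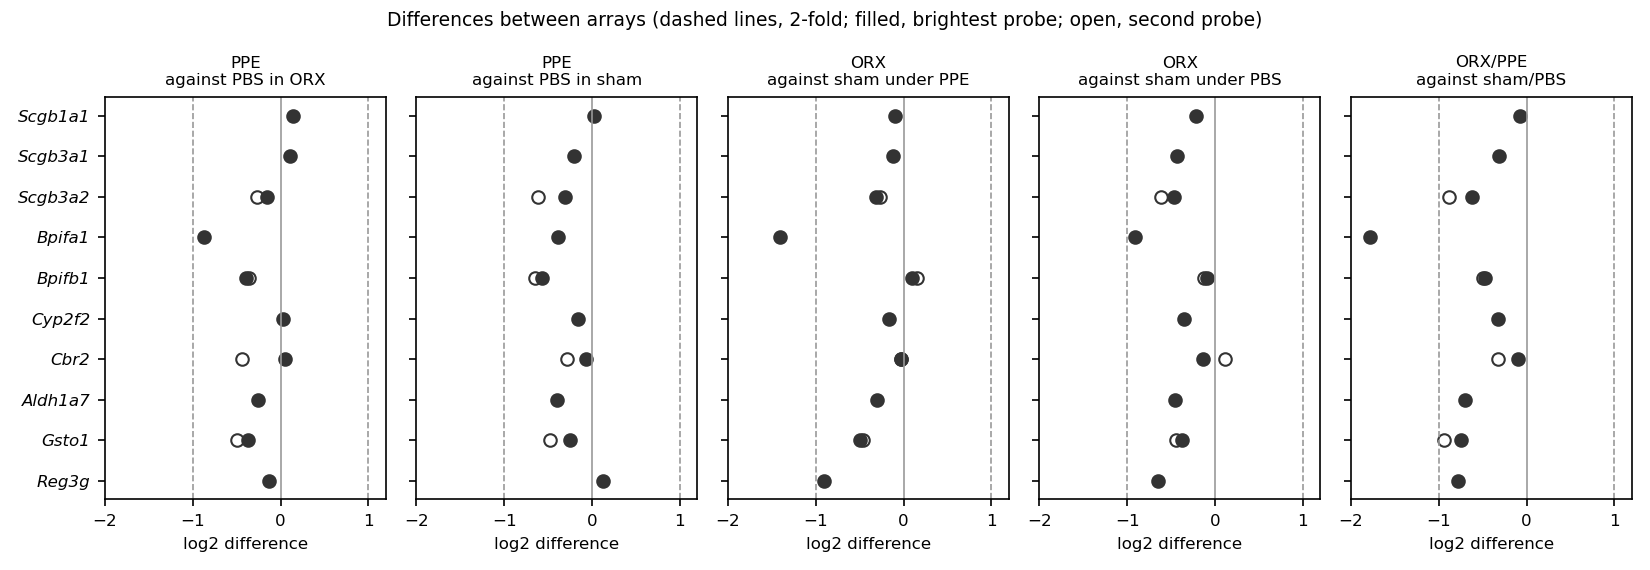
Log2 differences of the 10 club cell genes (vertical axis) in the 5 comparisons (panels; horizontal axis in log2 units, dashed lines at 2-fold). Filled points are the brightest probe and open points the second probe; Bpifa1 lies beyond the line at -1.40 for ORX against sham under PPE and at -1.78 for ORX/PPE against sham/PBS.

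Bpifb1 encodes a longer BPI-fold protein of goblet, serous and other airway secretory cells, and its 2 probes, at chr2:154046019-154046078 and chr2:154046044-154046103, share 35 bases and so are not independent. The brighter had levels of 4.46 in ORX/PPE, 4.85 in ORX/PBS, 4.37 in sham/PPE and 4.94 in sham/PBS. The other had 4.42 in ORX/PPE, 4.78 in ORX/PBS, 4.26 in sham/PPE and 4.91 in sham/PBS. Both PPE arrays were below both PBS arrays on each probe, and surgery did not order the arrays. PPE minus PBS was -0.39 in ORX and -0.57 in sham mice on the brighter probe, and ORX minus sham was 0.09 under PPE and -0.09 under PBS.

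Of 18 genes of the BPI-fold family and related lipid-transfer proteins, 11 were above background on all arrays. Bpifa1 and Bpifb4 had both ORX arrays below both sham arrays, and Bpifb5 had both above. These orders were found in 21.6% and 18.5% of all genes. Bpifb9a, a family member at the detection limit, was at least 2.67-fold higher in ORX/PPE than in sham/PPE, where it was not well above background. Apart from Bpifa1 and Bpifb9a, 0 of the family passed 2-fold in any comparison.

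The enzymes follow, each short of 2-fold in every comparison. Cyp2f2, the cytochrome P450 that activates naphthalene in mouse club cells, was read at chr7:27918570-27918629 (plus strand). Its level was 7.74 in ORX/PPE, 7.72 in ORX/PBS, 7.91 in sham/PPE and 8.07 in sham/PBS. Both ORX arrays lay below both sham arrays by 0.16. The ORX difference was -0.16 under PPE and -0.35 under PBS, and PPE minus PBS was 0.03 in ORX and -0.16 in sham mice.

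Cbr2, the carbonyl reductase of mouse lung, had 2 probes 1234 bases apart on chromosome 11. The brighter (chr11:120590825-120590884) had levels of 8.81 in ORX/PPE, 8.76 in ORX/PBS, 8.83 in sham/PPE and 8.90 in sham/PBS. The dimmer (chr11:120592059-120592118) had 6.21 in ORX/PPE, 6.64 in ORX/PBS, 6.24 in sham/PPE and 6.53 in sham/PBS. The probes disagreed on order. On the brighter the ORX arrays were lower by a gap of 0.03, and on the dimmer ORX/PBS was the highest array and both PPE arrays were the lowest. ORX minus sham under PBS was -0.14 on the brighter and 0.11 on the dimmer probe, and PPE minus PBS in ORX mice was 0.05 and -0.43.

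Aldh1a7, an aldehyde dehydrogenase close to the retinal dehydrogenase Aldh1a1, was read at chr19:20767553-20767612 (minus strand). Its level was 3.59 in ORX/PPE, 3.84 in ORX/PBS, 3.89 in sham/PPE and 4.29 in sham/PBS. ORX/PPE was lowest and sham/PBS highest, and ORX/PBS and sham/PPE differed by 0.05, the size of the spot error. ORX minus sham was -0.30 under PPE and -0.45 under PBS, PPE minus PBS was -0.25 in ORX and -0.40 in sham mice, and ORX/PPE minus sham/PBS was -0.70. Aldh1a1, which a probe for Aldh1a7 could also read, had levels of 7.02 in ORX/PPE, 7.02 in ORX/PBS, 6.92 in sham/PPE and 7.13 in sham/PBS and did not share that order.

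Gsto1, a glutathione transferase of the omega class, had 2 probes 279 bases apart on chromosome 19. The brighter (chr19:47939128-47939187) had levels of 4.57 in ORX/PPE, 4.94 in ORX/PBS, 5.06 in sham/PPE and 5.31 in sham/PBS. The other (chr19:47938849-47938908) had 3.42 in ORX/PPE, 3.91 in ORX/PBS, 3.89 in sham/PPE and 4.36 in sham/PBS. Both probes put ORX/PPE lowest and sham/PBS highest, with ORX/PBS and sham/PPE between and within 0.12 of each other. ORX/PPE minus sham/PBS was -0.75 on the brighter and -0.94 on the other, that is 59.5% and 52.1% of the scaled sham/PBS signal. ORX minus sham was -0.49 under PPE and -0.37 under PBS on the brighter probe, and -0.47 and -0.45 on the other. Its relative Gsto2 had levels of -1.91 in ORX/PPE, -2.20 in ORX/PBS, -1.92 in sham/PPE and -1.70 in sham/PBS, an order that Gsto1 did not share.

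Reg3g encodes a secreted C-type lectin that kills Gram-positive bacteria and is induced in airway epithelium by interleukin 22. Its probe lies at chr6:78416420-78416479 on the minus strand, and the processed signal was 12591 in ORX/PPE, 15984 in ORX/PBS, 22809 in sham/PPE and 21430.3 in sham/PBS. Levels were 3.87 in ORX/PPE, 4.0 in ORX/PBS, 4.78 in sham/PPE and 4.65 in sham/PBS. The arrays fell into pairs by surgery, with a gap of 0.65, the widest among the members. ORX minus sham was -0.91 under PPE (53.2% of the scaled sham signal) and -0.65 under PBS (63.7%), short of 2-fold in both. PPE minus PBS was -0.13 in ORX and 0.13 in sham mice. Of the genes above background on both arrays, 239 of 19364 were further down in ORX against sham under PPE and 738 of 19709 under PBS. The paralog Reg3b was not well above background on any array.

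Counted over the members, PPE against PBS in ORX mice had 0 of 10 past 2-fold, where 0.689% of 20895 genes were called higher and 0.373% lower (0.0539% and 0% of genes with a signal of 10000 or more on either array). PPE against PBS in sham mice had 0 of 10, where 1.26% of 20588 genes were called higher and 0.442% lower (0.545% and 0% of bright genes). All members are among the bright genes. ORX against sham under PPE had 1 of 10 lower and 0 higher, where 1.41% of 20517 genes were called lower and 0.327% higher (0.54% and 0% of bright genes). ORX against sham under PBS had 0 of 10, where 0.592% of 20940 genes were called higher and 1.26% lower (0.321% and 0.696% of bright genes). ORX/PPE against sham/PBS had 1 of 10 lower and 0 higher, where 1.26% of 20491 genes were called lower and 0.947% higher (0.649% and 0.767% of bright genes). With 10 members, a count of 1 is Bpifa1 and no result about the group. The comparisons share arrays: sham/PBS is in 3 of the 5 and ORX/PPE in 3.

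The members' median difference was -0.14 for PPE against PBS in ORX, -0.23 in sham, -0.23 for ORX against sham under PPE, -0.40 under PBS and -0.55 for ORX/PPE against sham/PBS. The median over all genes above background lay between -0.01 and 0.02 in these comparisons. Below zero were 6, 8, 9, 10 and 10 of the 10 members in the same order of comparisons, and 49.9%, 47.0%, 52.8%, 51.4% and 50.8% of all genes. Genes with a signal of 10000 or more had medians between -0.03 and 0.08.

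By order of arrays, 9 of 10 members, all but Bpifb1, had both ORX arrays below both sham arrays, which held for 21.6% of 19089 genes above background on all arrays and for 20.3% of the 1883 bright genes. The gap was 0.65 for Reg3g and 0.53 for Bpifa1, and between 0.03 and 0.16 for the other 7. These gaps carry the software's error of 10% of the signal on each array. That count depended on scaling: it was 2, Bpifa1 and Reg3g, without scaling between arrays, and between 6 and 9 under the other 9 settings. The shares of all genes were counted with the main scaling only, so the counts under other settings have no share beside them. Bpifa1 and Reg3g kept the order under all 10. The settings that pick or average probes or filter dim ones could not change it, since each gene has a single probe. The same order was found in 8 of 10 cardiac muscle genes, 4 of 12 alveolar type 2 genes, 3 of 21 ciliated cell genes and 2 of 13 neutrophil genes above background, and the part of admixed heart tissue in the members' differences was not tested. On the brightest probe, 1 of the members (Bpifb1) had both PPE arrays below both PBS arrays, which held for 12.8% of all genes and 5.05% of bright ones. On that probe 0 had both above, which held for 14.6% and 20.3%. The second probes of Cbr2, Gsto1 and Scgb3a2 also had both PPE arrays below both PBS arrays. The share of all genes was not counted on second probes.

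The brightest members were these. Scgb1a1 was between 50.5% and 52.9% of the saturation value of 778375 on the 4 arrays, Cbr2 between 44.9% and 51.8%, Scgb3a2 between 29.2% and 44.6%, and Cyp2f2 between 22.6% and 28.1%. No spot or pixel was marked as saturated. Bpifa1 and Reg3g lay well below, between 2.89% and 9.75% and between 1.46% and 2.62%.

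Genes whose brightest probe was at 100000 or more and that had a dimmer probe kept for comparison numbered 36, Scgb3a2 and Cbr2 among them. The dimmer probe had to be well above background on all arrays and within a set range of lower signal. Second probes nearly as bright were therefore left out. The dimmer probe gave the larger difference for 18 of the 36 in PPE against PBS in ORX, 29 in PPE against PBS in sham, 26 in ORX against sham under PPE, 26 under PBS and 29 in ORX/PPE against sham/PBS. The paired probes had the same sign for 22, 28, 32, 20 and 26 of the 36 in the same order of comparisons. In PPE against PBS in sham the median size was 0.24 on the dimmer and 0.10 on the brighter probe. For 3440 genes with a brightest probe between 1000 and 10000, paired in the same way, the dimmer probe gave the larger difference in 57.8% to 67.9%. Their paired probes had the same sign for 2095 to 2223 genes, depending on the comparison. Scgb1a1, Scgb3a1 and Cyp2f2, also at 100000 or more, had no second probe. Whether their small differences would be larger, or of the other sign, on a dimmer probe was not tested.

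**Figure D3:**
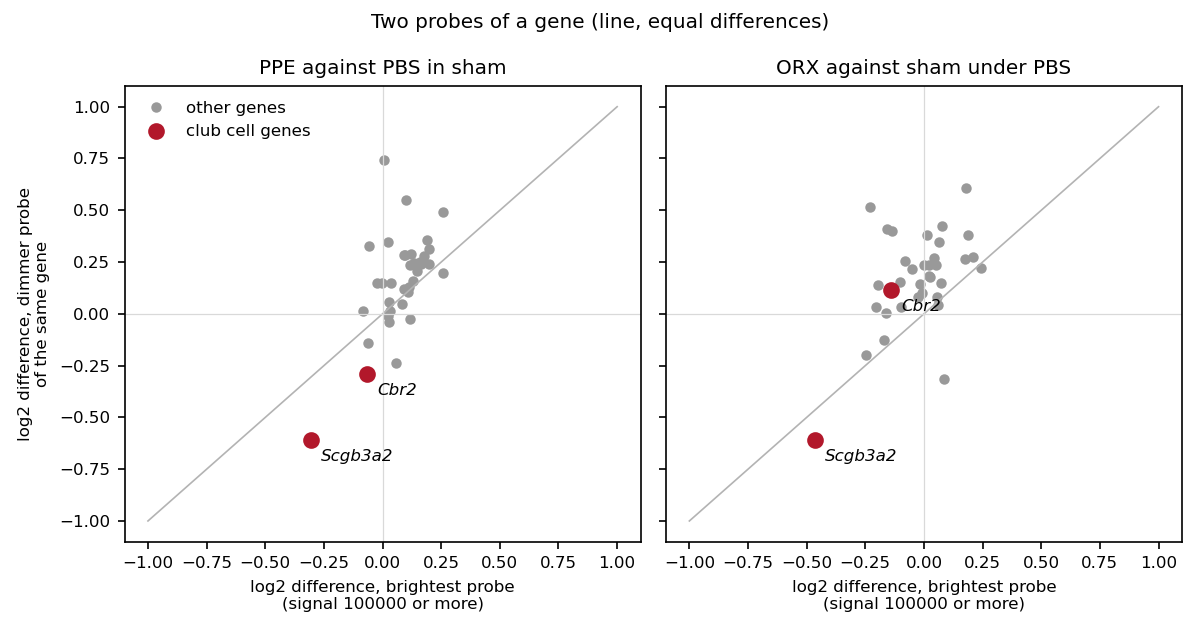
Log2 difference of the brightest probe (horizontal axis) and of a dimmer probe of the same gene (vertical axis) for 36 genes whose brightest probe had a signal of 100000 or more, for PPE against PBS in sham (left) and ORX against sham under PBS (right). The line marks equal differences; Scgb3a2 lies at -0.31 and -0.61 on the left, and Cbr2 changes sign on the right (-0.14 and 0.11).

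Other gene lists give the setting of these values. Of 30 further genes of club and secretory cells, 29 were above background and 0 passed 2-fold in any comparison. Their median was -0.10 for PPE against PBS in ORX, -0.27 in sham, -0.08 for ORX against sham under PPE, -0.23 under PBS and -0.39 for ORX/PPE against sham/PBS. In array order, 10 of the 29 had both ORX arrays below both sham arrays, against 21.6% of all genes. Among these were Hp (haptoglobin), Pigr (which carries IgA into the airway) and Cftr (the chloride channel). Cyp2b10, Fmo2, Ephx1 and Por, 4 of the 29, had both ORX arrays above both sham arrays, against 18.5% of all genes. Another 13 of the 29 had both PPE arrays below both PBS arrays, against 12.8% of all genes, among them Aldh1a1, Cyp4b1 and Muc5b. Both PPE arrays were above both PBS arrays for 0 of the 29, against 14.6% of all genes. Hp, Pigr, Cftr, Aldh1a1, Cyp4b1 and Muc5b were picked as examples after their values were seen. The difference between this list and the 10 members was not tested.

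All 21 ciliated cell genes were above background and 0 passed 2-fold. Both PPE arrays were below both PBS arrays for 11 of the 21, against 12.8% of all genes, and above for 0, against 14.6%. All 21 were below zero in PPE against PBS in sham (median -0.52), in ORX against sham under PBS (median -0.35) and in ORX/PPE against sham/PBS (median -0.35), the comparisons that share sham/PBS. In the comparisons without that array the medians were -0.02 for PPE against PBS in ORX and 0.18 for ORX against sham under PPE. Their summed level was 166 in ORX/PPE, 181 in ORX/PBS, 171 in sham/PPE and 209 in sham/PBS. The members' summed level was 1607 in ORX/PPE, 1609 in ORX/PBS, 1818 in sham/PPE and 2005 in sham/PBS. That sum is made mostly of the brightest probes, those of Scgb1a1, Cbr2, Scgb3a2 and Cyp2f2, and says little of Bpifa1 or Reg3g. Sham/PBS was thus highest on both sums, and the part of airway tissue content in the members' differences was not tested. Bpifa1's -1.40 and Reg3g's -0.91 under PPE rest on sham/PPE, the array with the highest cardiac and neutrophil sums, whose part in them was not tested. Under PBS, without that array, they were at -0.91 and -0.65.

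Alveolar type 2 genes lay nearer zero, with medians of 0.07 for PPE against PBS in ORX, 0.22 in sham, -0.08 for ORX against sham under PPE, 0.08 under PBS and 0.15 for ORX/PPE against sham/PBS, and 0 of 12 past 2-fold. Goblet cell genes, of which 9 to 11 were above background, had medians of 0 for PPE against PBS in ORX and -0.41 in sham. For ORX against sham the medians were 0.10 under PPE and -0.11 under PBS. Clca1, an airway mucus protein, was at 1.92 for PPE against PBS in ORX and -0.89 in sham, and at 2.04 for ORX against sham under PPE. Itln1, a lectin of mucus, was at 1.66 for PPE against PBS in ORX and 2.47 in sham, and at -1.11 for ORX against sham under PPE. Of the 9 goblet cell genes above background on all arrays, 5 had both PPE arrays below both PBS arrays, against 12.8% of all genes. Another 2 had both above, against 14.6%. Their sum showed no order by surgery: 35.4 in ORX/PPE, 33.2 in ORX/PBS, 27.2 in sham/PPE and 37.4 in sham/PBS. Among serous gland genes, Ltf (lactoferrin, also a neutrophil granule protein) was at -1.60 for ORX against sham under PPE and -1.31 for ORX/PPE against sham/PBS. Dmbt1, a bacteria-binding mucosal protein, was at -2.19 for ORX against sham under PPE and -0.55 under PBS. Its PPE against PBS difference in sham was 1.48. Its signals were low, at 17.5 in ORX/PPE, 22.7 in ORX/PBS, 77.2 in sham/PPE and 28.4 in sham/PBS. The 9 serous gland genes above background had medians of -0.10 for ORX against sham under PPE and -0.19 under PBS.

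**Figure D4:**
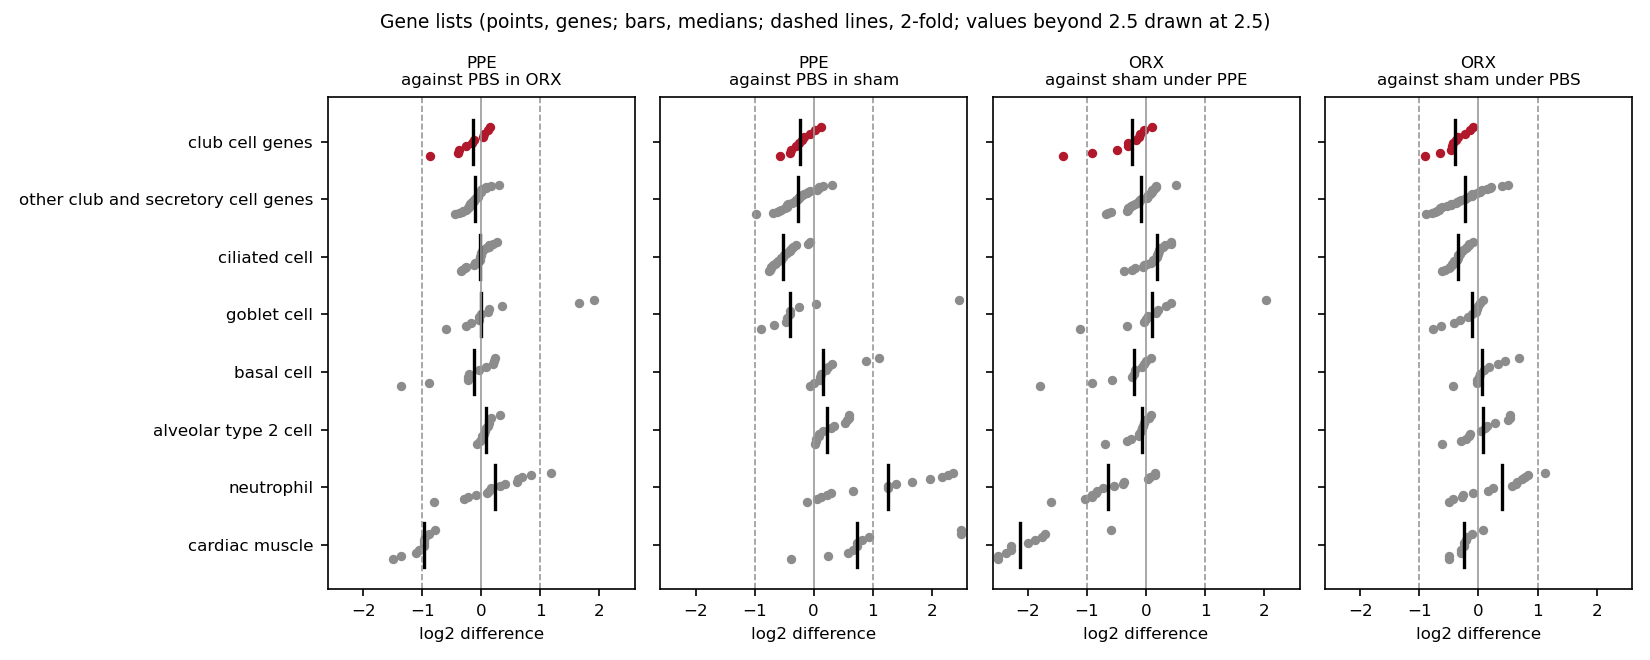
Log2 differences of genes (points) in lists of airway, alveolar and other cell types (vertical axis) in 4 comparisons (panels; horizontal axis in log2 units; bars, list medians; dashed lines, 2-fold). The club cell genes have medians of -0.14, -0.23, -0.23 and -0.40 from left to right, and cardiac muscle genes reach a median of -2.14 for ORX against sham under PPE.

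Another list held 17 cytokines, receptors, signal carriers and responders of epithelial defence, and whether any of them acts on Reg3g or Bpifa1 was not tested. Of these, 15 were above background on all arrays, and 7 had both ORX arrays below both sham arrays, an order found in 21.6% of all genes. The gaps were 0.61 for Il6, 0.56 for Il22ra1, 0.20 for Socs3 and 0.14 for Il17rc. For Stat6 (0.03), Tnf (0.0098) and Il22 (0.0039) they were below 0.05, the spot error of bright probes, which these are not. Il22ra1, the receptor chain for interleukin 22, had levels of -0.35 in ORX/PPE, -0.39 in ORX/PBS, 0.21 in sham/PPE and 0.75 in sham/PBS. It was past 2-fold for ORX against sham under PBS (-1.13) and for ORX/PPE against sham/PBS (-1.10), and at -0.56 for ORX against sham under PPE. Lcn2 and Saa3, defence proteins induced in inflamed epithelium, did not follow Reg3g. Saa3 was at 1.37 for PPE against PBS in ORX and 1.28 in sham, and Lcn2 at 0.69 and 1.25.

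Of 22 regulators of secretory cell fate, all were above background. Dll1, a Notch ligand, was past 2-fold lower in PPE against PBS in sham (-1.09) and in ORX against sham under PBS (-1.15), and the receptor Notch1 in the second of these (-1.03). Both comparisons use sham/PBS. Under PPE, ORX minus sham was 0.25 for Dll1 and -0.15 for Notch1.

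Bpifa1 was the only member to span 1 log2 unit or more over the arrays. Among 19079 other genes, those with the profile nearest to it, each centred on its own mean, were Tacr1 (a tachykinin receptor), Cst8 (a cystatin) and Rhox5 (a homeobox gene). Their largest gaps to it on any of the 4 arrays were 0.16, 0.18 and 0.19 log2 units.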

How the data were processed

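Total RNA of lung was labelled with Cy3 and read on 1-colour Agilent arrays of design 074809, on 1 slide with 1 scan time, per the file headers. The deposited processed signal is a linear intensity, background-subtracted by Feature Extraction and not normalized between arrays, per the file headers. The software version is 10.7.1.1 in the headers and 9.5.1.1 in the submitters' processing notes; which is right is unknown. Other columns deposited by the authors hold mean and background intensity, and marks of 0 or 1 for background, saturation and outlier spots. The authors' value table for the series also holds linear intensity, with the same quantiles in every column; it served as an alternative.

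Outlier spots (31 to 54 of 59305 per array) were left out, the repeats of a probe were averaged, and the log2 of the array's 75th percentile (829.8 to 999.2, per the file headers) was taken off the log2 signal. Probes were named through the RefSeq table of GRCm38.p6, 32994 by accession, 10224 by symbol and 520 by synonym; 2110 kept the file's name and 10757 had none. Coordinates of probes were read from the files (mm9). A gene was represented by its brightest probe. It was counted at 2-fold if measured above background on each array compared, or, if on 1 of them, when the bound against the other passed. Between 40636 and 42649 probes were well above background per array. There is no replicate, so no model was fitted. The precision is limited by the number of arrays.

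Named are every member, up to 4 genes per list and direction furthest past 2-fold, paralogs a probe could also read, and for members spanning 1 log2 unit the 3 nearest profiles; other names were chosen after their values were seen. The members and lists were chosen with earlier results of these data known. Alternatives were normexp (offset 50), quantile normalization, median centring, no scaling, the value table, the mean or the dimmest probe, a stricter filter, no filter, and a 1.5-fold threshold. Scaling to probes of 10000 or more, the comparison of probe pairs, the bright-gene background and the array-order count under each alternative were added after the data were seen. Tools were limma 3.58.1 in R 4.3.3 (normexp), numpy 2.4.6, pandas 2.3.3, and for drawing matplotlib 3.10.9, under Python 3.11.15.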

Additional observations from a re-analysis of the deposited data

Results flagged for a closer look

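For 5 members the difference of a contrast had opposite signs in the other factor's groups. Each rests on 1 array per group, and no difference between the groups was tested. PPE minus PBS was 0.11 in ORX and -0.20 in sham mice for Scgb3a1, 0.0294 in ORX and -0.16 in sham mice for Cyp2f2, 0.0482 in ORX and -0.0664 in sham mice for Cbr2, and -0.13 in ORX and 0.13 in sham mice for Reg3g. ORX minus sham was 0.0930 under PPE and -0.0897 under PBS for Bpifb1. Under the 10 other settings, Reg3g kept both signs in all 10. The settings that pick or average probes could not change Reg3g, Scgb3a1 or Cyp2f2, which have a single probe each. The filters on dim probes changed no member. The PPE difference in ORX mice kept its sign in 9 for Scgb3a1, in 7 for Cyp2f2 and in 5 for Cbr2, and the ORX difference under PBS kept its sign in 9 for Bpifb1.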

How the results depend on the processing

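Bpifa1 stayed past 2-fold, lower, for ORX against sham under PPE and for ORX/PPE against sham/PBS under all 10 other settings. Not all of these could move it. The settings that pick or average probes or filter dim ones left it unchanged by design, since it has a single probe, above background on all arrays. Quantile normalization and the value table gave nearly the same values, so they are not separate checks. At a 1.5-fold threshold, 1 member was lower in PPE against PBS in ORX, 2 in ORX against sham under PBS, 2 in ORX against sham under PPE and 5 in ORX/PPE against sham/PBS. Without scaling between arrays, 1 member, Bpifa1 at -1.09, was 2-fold lower in PPE against PBS in ORX, and 2 members instead of 9 had both ORX arrays below both sham arrays. Leaving out scaling moved the median of all probes by 0.23 for ORX against sham under PBS and by -0.21 for PPE against PBS in ORX. Scaling to probes of 10000 or more moved it by -0.0958 for PPE against PBS in sham and by -0.0793 for ORX against sham under PBS, and normexp, quantile normalization, median centring and the value table moved it by at most 0.07. Under quantile normalization and in the value table the array-order count was 6. The share of all genes in that order was not counted under any of these alternatives. In the 5 comparisons, signs changed under some setting for Scgb1a1, Cbr2, Cyp2f2, Scgb3a1 and Bpifb1, and for the other 5 members under none. No paired analysis was possible because each group has 1 array, and for the same reason no array could be left out of a group. Spots show scanner noise only; how mice within a pool differed is not measured.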
